A study of Mus musculus with 46 samples.

Results

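Rragd and 9 genes that work with it were followed through mouse synovial sarcomas in which a subunit of the SWI/SNF chromatin remodelling complexes had been disrupted. The set holds 10 of the 56854 genes counted in both deposited tables: the Rag GTPases Rraga, Rragb, Rragc and Rragd, the MiT/TFE transcription factors Mitf, Tfeb and Tfe3, and the folliculin complex genes Flcn, Fnip1 and Fnip2. Rragd was selected on its measured counts, which were lower after Pbrm1 disruption in tumours driven by SS18::SSX1 and not in those driven by SS18::SSX2, and the other 9 were added by function. The Rragd values in those contrasts are therefore a description, given with no p-value, and nothing is read from whether it passed a threshold there.

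The series holds RNA-seq of 46 whole tumours, 1 library per tumour. All were induced in the limb by injected TATCre protein, a cell-permeable Cre recombinase, which switched on a human SS18::SSX fusion from the Rosa26 locus (hSS2 carries SS18::SSX2, hSS1 carries SS18::SSX1). The hSS2 table holds 13 control tumours with the fusion alone, 8 that were also homozygous for a floxed Pbrm1 allele (Pbrm1-fl), 8 for a floxed Arid1a allele (Arid1a-fl) and 8 for a floxed Arid1b allele (Arid1b-fl). The hSS1 table holds 5 control and 4 Pbrm1-fl tumours and was deposited apart, with another prefix on its library labels, so fusion and table cannot be told apart in levels set across the 2. Pbrm1 encodes a subunit of the PBAF form of the complex, and Arid1a and Arid1b encode alternative subunits of the canonical BAF form. Mice were of a mixed C57BL/6 and svJ background, of both sexes, and the tumours contained host stroma that does not carry the recombined alleles. In a bulk tumour, fewer cells that use a gene and less of its RNA per cell cannot be told apart.

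Rag GTPases sit on the lysosome as pairs of RagA or RagB with RagC or RagD and, when amino acids are plentiful, bring the growth kinase complex mTORC1 to the lysosomal surface. Folliculin, with Fnip1 or Fnip2, is the GTPase-activating protein for RagC and RagD. The MiT/TFE factors bind the Rag pairs, are kept in the cytoplasm while phosphorylated by mTORC1, and otherwise switch on genes of lysosomes and autophagy, the genes of RagD, RagC and folliculin among their known targets. Human TFE3 and TFEB are themselves fusion partners in other tumours.

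The core letters that MiT/TFE factors bind, CACGTG, were searched in the windows from 250 bases before to 50 bases after each RefSeq transcription start (GRCm38.p6), since several of the 10 genes are known targets. The core reads the same on both strands. It was present in 7.15% of 32851 windows of all genes and in 3 of the 15 windows of the 10 genes, 1 each for Rragb, Rragc and Fnip1. The related core CATGTG, searched on both strands, was in 14.2% of all windows and in none of the 15. The stretch before the start of Rragd and those parts of the other 3 that hold the core follow, 5′ to 3′ on the gene's strand, with CACGTG in capitals. They are Rragd at chr4:32982748-32982997, Rragc at chr4:123917283-123917429, Fnip1 at chr11:54438029-54438175 and Rragb at chrX:153139808-153139954, all on the plus strand.
Rragd: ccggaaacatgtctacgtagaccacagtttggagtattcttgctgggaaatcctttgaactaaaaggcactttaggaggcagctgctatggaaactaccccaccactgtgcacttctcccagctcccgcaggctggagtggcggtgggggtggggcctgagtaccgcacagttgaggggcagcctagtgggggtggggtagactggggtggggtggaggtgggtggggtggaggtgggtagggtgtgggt
Rragc: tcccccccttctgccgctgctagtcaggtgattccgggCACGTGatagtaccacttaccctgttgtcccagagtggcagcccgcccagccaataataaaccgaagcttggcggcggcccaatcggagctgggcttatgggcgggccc
Fnip1: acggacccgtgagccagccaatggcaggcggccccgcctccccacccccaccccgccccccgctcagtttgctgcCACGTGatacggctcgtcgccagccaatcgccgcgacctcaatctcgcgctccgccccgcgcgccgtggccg
Rragb: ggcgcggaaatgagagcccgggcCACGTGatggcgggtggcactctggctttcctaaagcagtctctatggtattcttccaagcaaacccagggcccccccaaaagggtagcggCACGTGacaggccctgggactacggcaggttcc
The cores began 112 bases before the start in Rragc, 75 bases in Fnip1 and 127 and 36 bases in Rragb, whose window held a further one overlapping the start itself. No CACGTG was found in the Rragd window, which says only that these letters are absent from that stretch.

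Rragd, which encodes RagD (plus strand of chromosome 4, 32983037 to 33022180, GRCm38), stood lowest in the hSS1 Pbrm1-fl tumours. A processed pseudogene, Gm11943, overlaps it on the opposite strand, so its reads could be shared between the 2. Levels are RPKM here, counts scaled to library depth (CPM, with TMM factors) per kilobase of merged exons. In hSS1 controls Rragd was at 37.6, 45.4, 49.3, 39 and 39.2 RPKM. In hSS1 Pbrm1-fl tumours it was at 17.4, 17.4, 15 and 18.5 RPKM. The groups did not overlap, as was so for 6.82% of the 17786 genes tested in hSS1, from which nothing is read since Rragd was chosen on these counts, and every one of the other 42 tumours of the series lay above the highest of these 4, the nearest at 20.7 RPKM. The group means were 42.1 ± 5.04 (SD, n = 5) and 17.1 ± 1.45 (SD, n = 4), a ratio of 2.47, and the fitted difference was -1.29 ± 0.13 (log2, SE). It stayed between -1.34 and -1.20 under each alternative of processing run and with each hSS1 tumour left out in turn. By edgeR's quasi-likelihood test with Benjamini-Hochberg adjustment, Rragd was 1 of 17786 tested genes past the threshold in this contrast (0.00562%), a count that the choice of the gene had fixed and from which nothing is read. That count over all genes was also unsteady. With 1 hSS1 tumour left out it was 4 without control replicate 5, 1 without control replicate 4 and 0 without any other. It was also 0 with controls of the same mouse number range or with that range as a block.

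**Figure D1:**
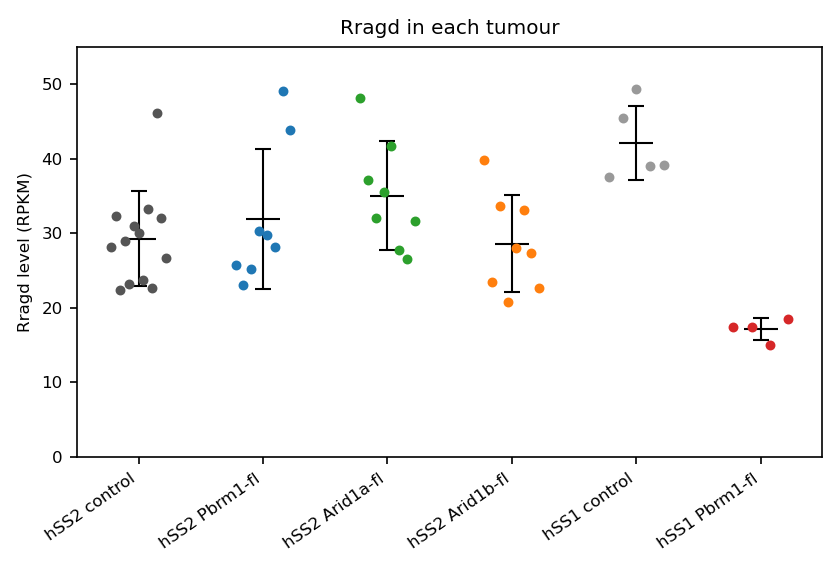
Rragd level in RPKM (vertical axis) in each of the 46 tumours, by group (horizontal axis); bars are the mean and SD. The 4 hSS1 Pbrm1-fl tumours lie between 15 and 18.5 RPKM, below all others.

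Among the hSS2 tumours no such step was seen. Controls ran from 22.4 through a median of 29 to 46.1 RPKM and Pbrm1-fl tumours from 23.0 through 29 to 49.1. The upper end of the Pbrm1-fl range came from replicates 7 and 8, at 49.1 and 43.9 RPKM, while the other 6 lay between 23.0 and 30.3, so the groups overlapped almost entirely. The fitted difference was 0.13 ± 0.14, and the hSS1 minus hSS2 difference in the Pbrm1-fl effect was -1.43 ± 0.25 (log2, SE, described without a p-value).

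In hSS2 Arid1a-fl tumours Rragd ran from 26.5 through 33.7 to 48.2 RPKM, a difference of 0.25 ± 0.14 from controls that did not pass (edgeR adjusted p = 0.287). In Arid1b-fl tumours it ran from 20.7 through 27.7 to 39.8 RPKM, with a difference of -0.03 ± 0.14 (edgeR adjusted p = 0.993). Ordered by mean, the groups were hSS1 control (42.1), hSS2 Arid1a-fl (35), hSS2 Pbrm1-fl (31.9), hSS2 control (29.3), hSS2 Arid1b-fl (28.6) and hSS1 Pbrm1-fl (17.1 RPKM). Each neighbouring pair in that order differed by less than the larger of its SDs and overlapped, apart from the last step down to hSS1 Pbrm1-fl. Within the 37 hSS2 tumours the highest level was 2.37 times the lowest, with levels spread over all 4 genotypes. In hSS1, which held both the highest (49.3 RPKM) and the lowest (15 RPKM) tumour of the series, that ratio was 3.28.

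The floxed gene itself was read as a check of the labels. Pbrm1 stood at 257 to 354 CPM in hSS1 controls and at 96.1 to 237 CPM in hSS1 Pbrm1-fl tumours, and at 170 to 318 against 94.6 to 141 CPM in hSS2. Replicate 3 of hSS1 Pbrm1-fl had both the lowest Pbrm1 (96.1 CPM) and the lowest Rragd. Arid1a in Arid1a-fl tumours (230 to 280 CPM) overlapped its controls at 1 tumour, control replicate 9 (239 CPM), and Arid1b (110 to 354 against 229 to 677 CPM) overlapped broadly. Whole-gene counts include exons outside the deleted part and RNA of unrecombined host cells. The authors also report that Pbrm1 RNA was depleted less in hSS1 than in hSS2 Pbrm1-fl tumours. They propose that hSS1 tumours were selected for cells in which only 1 floxed Pbrm1 allele had recombined. Recombination of the alleles was not tested here. Library totals ran from 10.1 to 21.3 M counts, and the 10 genes had medians of 228 to 2452 counts per library, with the smallest single value 42, for Mitf. All 10 passed the filter on low counts in every fit.

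RagD pairs with RagA or RagB in the place that RagC otherwise takes. Rragd made up 67.0 to 78.0% of the Rragc plus Rragd signal per length in hSS1 controls and 53.5, 50.8, 39.1 and 52.3% in hSS1 Pbrm1-fl tumours, without overlap. The share is built from the Rragd counts on which the gene was chosen, so nothing is read from that separation. Rragc itself overlapped between the groups. It lay at 12.9 to 19.3 RPKM in the controls and at 15.2, 16.8, 23.4 and 16.8 RPKM in the Pbrm1-fl tumours. Mean shares in the hSS2 groups ran from 59.4% ± 7.30 (SD, n = 13) in controls to 64.0% ± 5.77 (SD, n = 8) in Arid1a-fl. The hSS1 Pbrm1-fl mean was 48.9% ± 6.65 (SD, n = 4), with replicate 3 at 39.1% and the other 3 between 50.8 and 53.5%.

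None of the other 9 genes passed the threshold in the hSS1 Pbrm1-fl contrast. By edgeR only 1 of 17786 tested genes passed there (0.00562%), Rragd itself, so nothing is read from their absence. By edgeR, their fitted differences ran from -0.39 to 0.58 (median 0.10, against 0.011 over all tested genes), and 0 of 9 were under an unadjusted p of 0.05, which 17.2% of all genes reached. DESeq2 also called 0 of these 9, where it called 1244 of 19851 genes in all. The nearest to the threshold was Rragb, for RagB, at -0.39 ± 0.22 (edgeR adjusted p = 0.402). Mitf, the factor of pigment cells and osteoclasts, had the largest positive value, 0.58 ± 0.37 (edgeR adjusted p = 0.445). Standard errors of 0.13 to 0.39 with 4 tumours against 5 leave changes up to about the size of that of Rragd undetectable for several of them. The transcript 4933421O10Rik, described below, missed the threshold at 1.25 ± 0.28 (edgeR adjusted p = 0.121).

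**Figure D2:**
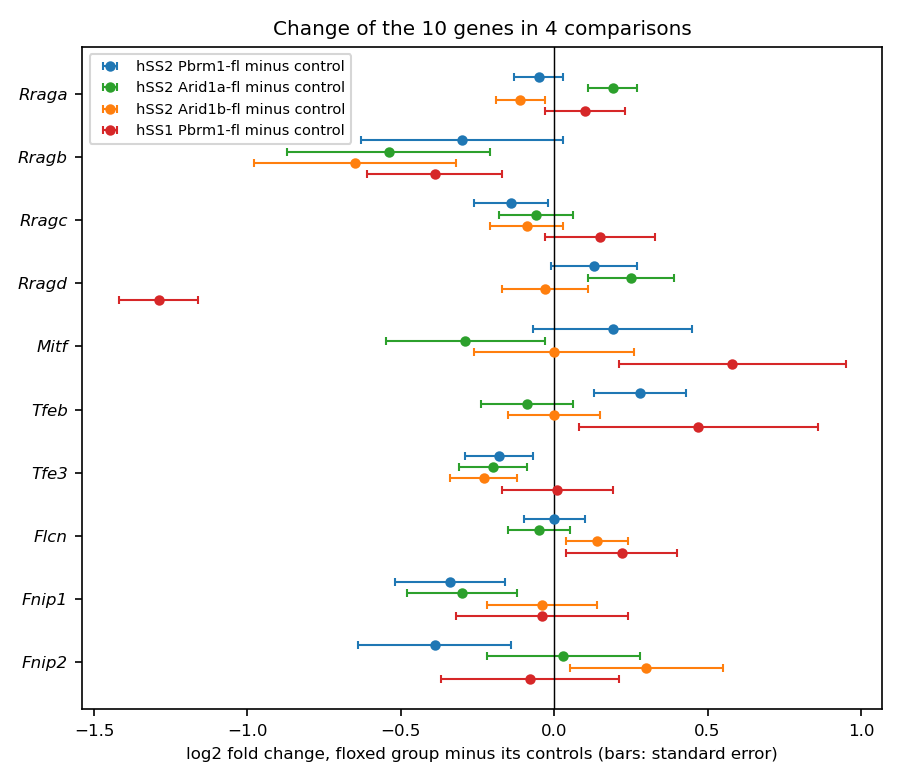
Fitted log2 fold change (horizontal axis) of each of the 10 genes (vertical axis) in the 4 comparisons of a floxed group with its controls; bars are standard errors. Rragd in hSS1 Pbrm1-fl, at -1.29, is the point furthest from 0.

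In hSS2 tumours none of the 9 genes other than Rragd was past the threshold after disruption of Pbrm1, and none of the 10 after disruption of Arid1a or Arid1b. In the Pbrm1-fl contrast 1476 of 20083 tested genes passed (7.35%) and 0 of the 9 tested members did, with 0 of 9 under an unadjusted p of 0.05 where 22.4% of all genes were. None was called by DESeq2, which called 2282 of 25980 genes there. In Arid1a-fl 637 genes passed (3.17%) and 0 of 10 members, 1 of the 9 other than Rragd being under an unadjusted p of 0.05 (23.0% of all genes). In Arid1b-fl 11 genes passed (0.0548%) and again 0 of 10 members, with 1 of 9 under an unadjusted p of 0.05 (6.22% of all genes). DESeq2 called no member in either, beside 1740 of 22896 genes in Arid1a-fl and 18 of 29835 in Arid1b-fl. For the difference between the Pbrm1-fl effects in hSS1 and hSS2, 622 of 21725 genes passed (2.86%) and 0 of the 9 tested members, the nearest being Rragc at 0.28 ± 0.21 (edgeR adjusted p = 0.479). With the range of mouse numbers as a block, a fit added after the data were seen, 0 of the tested members passed in any of these contrasts. Of all genes, 477, 1405 and 0 of 20083 passed with it in Pbrm1-fl, Arid1a-fl and Arid1b-fl. For the difference between hSS1 and hSS2 it was 9 of 21725.

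**Figure D3:**
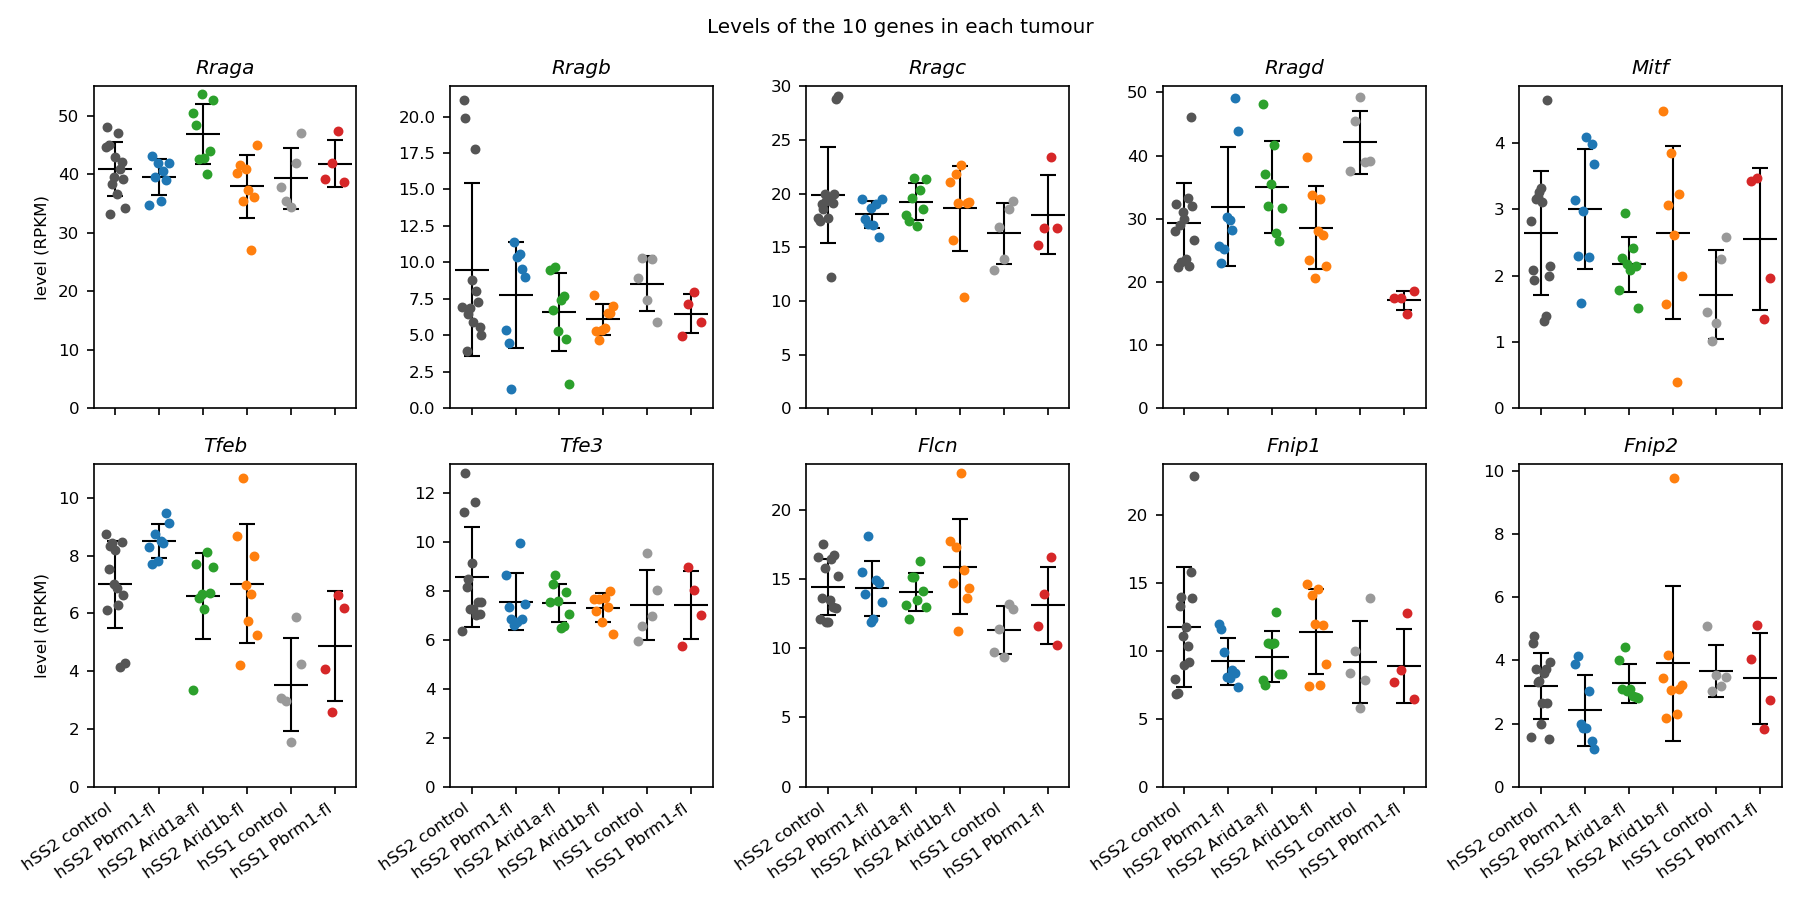
Level in RPKM (vertical axes, each from 0) of each of the 10 genes in every tumour, by group; bars are the mean and SD. Apart from Rragd, whose hSS1 Pbrm1-fl tumours end at 18.5 RPKM under hSS1 controls that begin at 37.6, each gene's floxed and control ranges overlap.

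Rraga, for RagA, was the most abundant of the 10 per length, with a median of 40.9 RPKM over 46 tumours and the smallest mean SD within groups relative to the mean, 11.2%, and is encoded by a single-exon gene on chromosome 4 (86575668 to 86577285). It ran from 33.2 through 40.9 to 48.2 RPKM in hSS2 controls and from 40 through 46.2 to 53.8 in Arid1a-fl tumours, with 7 of 8 above the control median. The difference of 0.19 ± 0.08 was under an unadjusted p of 0.05 (p = 0.0264, edgeR) but missed the threshold after adjustment (adjusted p = 0.162). Set against each other, Arid1a-fl exceeded Arid1b-fl by 0.29 ± 0.09 (edgeR adjusted p = 0.174), a contrast in which 20 genes passed (0.0996%). Pbrm1-fl lay below Arid1a-fl by -0.23 ± 0.09 (edgeR adjusted p = 0.0819), where 2468 genes passed (12.3%). All 8 Pbrm1-fl tumours lay under the Arid1a-fl median. Mouse numbers in the labels differ between the floxed hSS2 groups (2000 and over for Pbrm1-fl, under 1000 for Arid1a-fl, between these for Arid1b-fl), and within these pairs no tumours share a range. With the range as a block, whose size the controls set, Rraga in Pbrm1-fl against Arid1a-fl was -0.32 ± 0.15 (edgeR adjusted p = 0.222).

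Rragb, for RagB, is on chromosome X (153139981 to 153171943) and had the widest range of the 10, its highest level being 16.3 times its lowest. In hSS2 controls it ran from 3.95 through 6.94 to 21.1 RPKM, and the upper end came from replicates 2, 3 and 9, at 21.1, 19.9 and 17.8, with the other 10 between 3.95 and 8.78. Tfe3, also on chromosome X (7762560 to 7775202), was highest in the same 3 tumours, at 11.2, 12.8 and 11.6 RPKM, against 6.36 to 9.12 in the other 10 controls. Genes of the whole chromosome stood higher there: over 417 expressed X-linked genes the median deviation from the middle hSS2 tumour was 0.69, 0.74 and 0.67 log2, against -0.38 to 0.33 in all other hSS2 tumours.

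The part of that shift in the group values was measured by leaving out the 3 controls, a choice made after the data were seen. The control mean of Rragb then moved from 9.51 ± 5.92 (SD, n = 13) to 6.48 ± 1.43 (SD, n = 10) RPKM, and that of Tfe3 from 8.56 ± 2.04 to 7.57 ± 0.808. The Rragb difference in Pbrm1-fl tumours turned from -0.30 ± 0.33 to 0.25 ± 0.28 and that in Arid1a-fl from -0.54 ± 0.33 to 0.04 ± 0.28, while in Arid1b-fl it shrank from -0.65 ± 0.33 to -0.10 ± 0.28. None of these passed, with all 13 controls or with 10 (edgeR adjusted p from 0.315 to 0.981). The lowest Rragb levels, 1.29 RPKM in Pbrm1-fl replicate 3 and 1.66 in Arid1a-fl replicate 8, were at -2.33 and -2.01 log2 from the middle tumour, where the genes within 10 Mb had medians of -0.30 and -0.34.

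Rragc, for RagC, lies far along chromosome 4 from Rragd (123917446 to 123936997), and its 2 lowest levels also went with their surroundings. Arid1b-fl replicate 6 stood at 10.4 RPKM against 15.7 to 22.7 in the other 7, and hSS2 control replicate 9 at 12.2 against 17.5 to 29.1 in the other 12. The 224 expressed genes within 10 Mb of Rragc had median deviations of -0.77 and -0.66 log2 in those tumours, beside -0.85 and -0.63 for Rragc. In Arid1b-fl replicate 6 the 35 genes around Rraga were also low, at -0.70, with Rraga at its series minimum of 27.1 RPKM. Around Rragd neither tumour departed, with medians of 0.09 and -0.03 over 58 genes and Rragd at 33.1 and 33.3 RPKM. No group call for Rragc or Rraga changed without these tumours. Rragc overlaps 4930535I16Rik, and Fnip2 overlaps Gm17359, on the opposite strand, so their counts are less certain if strand was not used.

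**Figure D4:**
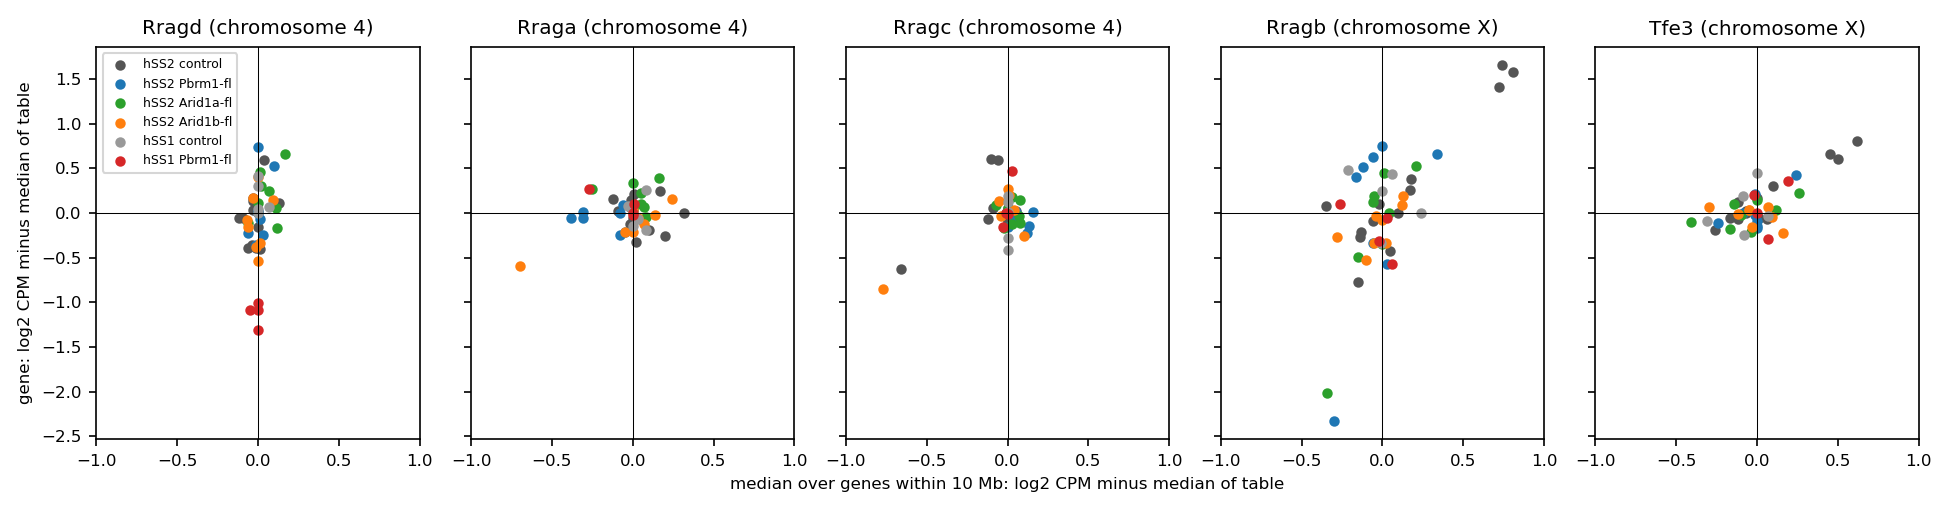
For 5 genes, log2 CPM of the gene (vertical axis) and the median over expressed genes within 10 Mb of it (horizontal axis), both as deviations from the median tumour of the same table; points are the 46 tumours, coloured by group. For Rragd the 4 hSS1 Pbrm1-fl points lie between -1.31 and -1.01 on the vertical axis at regional medians of -0.05 to 0.00.

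The same measure was applied to Rragd in hSS1. The 58 genes within 10 Mb had medians between -0.05 and 0.07 log2 in all 9 hSS1 tumours, while Rragd lay at -1.09, -1.09, -1.31 and -1.01 in the 4 Pbrm1-fl tumours. The median of the surrounding genes did not move with Rragd.

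Closer to the gene, 25 annotated genes start within 500 kb of the start of Rragd, and 11 of them were expressed enough to test in hSS1. By edgeR 0 of the 11 passed, with 1 under an unadjusted p of 0.05 (17.2% of all genes), and the median difference was -0.040. That 1 gene was 4933421O10Rik, a non-coding transcript on the opposite strand (33027142 to 33031323), whose near end lies 4961 bases beyond the end of Rragd and whose start is 93 bases from that of Ube2j1, a ubiquitin-conjugating enzyme gene. It stood at 7.80, 16.9, 14.4, 14.2 and 13.8 CPM in hSS1 controls and at 33.6, 31.2, 43.1 and 19.4 CPM in hSS1 Pbrm1-fl tumours. The direction was opposite to that of Rragd and the groups did not overlap, as in 6.82% of tested genes, with the highest value in replicate 3, the tumour with the lowest Rragd and Pbrm1. Its difference of 1.25 ± 0.28 missed the threshold by edgeR (adjusted p = 0.121) and passed by DESeq2 (adjusted p = 0.00323), where 1244 of 19851 genes did.

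In hSS2 the transcript did not follow. It lay at 12.4 to 16 CPM in the 8 Pbrm1-fl tumours, with a difference of -0.17 ± 0.16 from controls (edgeR adjusted p = 0.559). The difference between the Pbrm1-fl effects in hSS1 and hSS2 was 1.42 ± 0.30 and passed (edgeR adjusted p = 0.00879), the 1 of 12 tested neighbours to do so (2.86% of all genes). It held with each hSS1 tumour left out in turn, between 1.25 and 1.6, but was 1.10 (edgeR adjusted p = 0.198) with only controls of the same mouse number range, where 2 genes in all passed, and 1.09 ± 0.36 (edgeR adjusted p = 0.184) with the range as a block. Ube2j1 itself was at 74.5 ± 17.6 (SD, n = 5) and 76.0 ± 16.6 (SD, n = 4) CPM in the hSS1 groups, a difference of 0.04 ± 0.20 (edgeR adjusted p = 0.944). Whether reads were counted by strand is not stated in the sources used here, although the library kit keeps strand.

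On the other side, Ankrd6, a gene of Wnt signalling on the opposite strand whose start lies at -32.2 kb from that of Rragd, had values of -0.92 ± 0.56 in hSS1 and -0.54 ± 0.20 in hSS2 Pbrm1-fl tumours, neither past the threshold (edgeR adjusted p = 0.422 and 0.0913). The hSS1 value leaned on Pbrm1-fl replicate 3, at 5.89 CPM. The other hSS1 Pbrm1-fl tumours were at 40.9, 53 and 67.7 CPM and the hSS1 controls at 66 to 126 CPM. The hSS2 value passed in 1 of 8 alternatives, with the muscle score as a covariate (edgeR adjusted p = 0.0354), and not with any 1 Pbrm1-fl tumour left out. In hSS2 it was lower in Pbrm1-fl than in Arid1a-fl tumours by -0.96 ± 0.22 and than in Arid1b-fl by -0.81 ± 0.22 (edgeR adjusted p = 0.00403 and 0.0260). The contrast with Arid1b-fl held 878 calls of 20083 genes (4.37%). Neither passed with the range as a block (-1.12 ± 0.37 and -1.20 ± 0.38, edgeR adjusted p = 0.0857 and 0.202). The nearest neighbour by start, the pseudogene Gm11942, was at 1.97 ± 1.53 (SD, n = 5) and 1.51 ± 1.25 (SD, n = 4) CPM in hSS1, too low to compare.

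**Figure D5:**
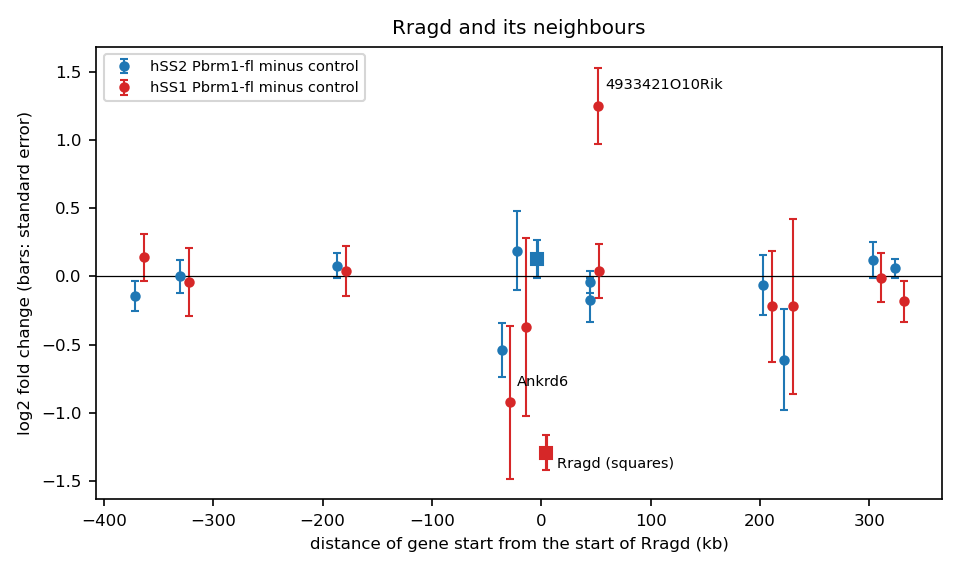
Fitted log2 fold change (vertical axis, bars are standard errors) of Rragd (squares) and of the 11 tested genes that start within 500 kb (circles), by distance of their start from that of Rragd in kb (horizontal axis, the 2 comparisons moved apart by a few kb). In hSS1 Rragd is at -1.29 and 4933421O10Rik at 1.25.

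Among the MiT/TFE factors Tfe3 gave the largest share of the family signal per length in most groups, 47.2% ± 8.64 (SD, n = 13) in hSS2 controls, followed by Tfeb at 38.3% ± 5.43 and Mitf at 14.5% ± 4.32. That order rests on the gene length used: per kilobase of the longest transcript Tfeb led there, at 51.3% against 38.5% for Tfe3. Tfeb, the main activator of lysosomal genes, ran from 4.13 through 7.01 to 8.73 RPKM in hSS2 controls and from 7.70 through 8.48 to 9.46 in Pbrm1-fl tumours, all 8 above the control median. The ranges still overlapped, and the difference of 0.28 ± 0.15 did not pass (edgeR adjusted p = 0.247). Against Arid1a-fl it was 0.38 ± 0.16, again with 8 of 8 above that group's median (edgeR adjusted p = 0.131).

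Tfeb was at 3.07, 2.97, 1.54, 5.86 and 4.23 RPKM in hSS1 controls and at 4.08, 2.58, 6.64 and 6.17 in hSS1 Pbrm1-fl tumours. These ranges overlapped (0.47 ± 0.39, edgeR adjusted p = 0.564). Of the 5 hSS1 controls 3 lay under every hSS2 control, a difference between tables in which fusion and table cannot be told apart. Tfe3 differed between floxed and control groups by -0.23 to 0.01 and passed in none, and the value in Arid1b-fl was the only one under an unadjusted p of 0.05 (p = 0.0401 and adjusted p = 0.791, edgeR).

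Mitf was the least abundant of the 10, with a median of 2.29 RPKM over the series. Its lowest level by far was 0.394 RPKM in Arid1b-fl replicate 6, against 1.57 to 4.48 in the other 7. Of its classical targets in pigment cells, Dct, Mlana and Tyr were under 1 CPM in every tumour, which leaves the defining melanocyte markers near 0. In hSS1 it was at 1.45, 1.01, 1.28, 2.25 and 2.59 RPKM in controls and at 3.43, 3.47, 1.34 and 1.97 in Pbrm1-fl tumours, with overlap. The 78 expressed genes within 10 Mb of Mitf had median deviations of -0.33 to -0.28 log2 in those Pbrm1-fl tumours and 0.00 to 0.31 in the controls. That direction is opposite to the fitted difference of Mitf, 0.58. The part of the regional shift in the Mitf values was not tested.

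Flcn, Fnip1 and Fnip2 form the folliculin complex, in which Fnip1 was the more abundant partner and Fnip2 made up 22.4% ± 9.44 (SD, n = 13) of the pair in hSS2 controls. Flcn ran from 11.9 through 13.6 to 17.5 RPKM in hSS2 controls and from 11.9 through 14.3 to 18.1 in Pbrm1-fl. In hSS1 it was at 9.73, 11.4, 9.34, 13.2 and 12.8 RPKM in controls and at 11.6, 13.9, 16.6 and 10.2 in Pbrm1-fl tumours. Those groups overlapped, with a difference of 0.22 ± 0.18 (edgeR adjusted p = 0.545).

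Fnip1 ran from 6.79 through 11.1 to 22.9 RPKM in hSS2 controls and from 7.33 through 8.50 to 12 in Pbrm1-fl (-0.34 ± 0.18, edgeR adjusted p = 0.247). Fnip2 was lower in Pbrm1-fl than in Arid1b-fl tumours at an unadjusted p of 0.0188 but not after adjustment (-0.69 ± 0.28, edgeR adjusted p = 0.165). The Arid1b-fl mean leaned on replicate 5, at 9.79 RPKM where the other 7 lay between 2.19 and 4.18.

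The wider pathway was read from 75 listed genes in 7 groups, of which 74 could be tested in hSS2 and 72 in hSS1. In hSS1 Pbrm1-fl tumours 0 of 72 passed by edgeR (0.00562% of all genes), with 9 under an unadjusted p of 0.05 (17.2% of all genes). In hSS2 Pbrm1-fl tumours 3 of 74 rose and 2 fell. In Arid1a-fl 1 rose, and in Arid1b-fl 0 passed, with 2 under an unadjusted p of 0.05 (6.22% of all genes). These shares lie at or under the background of all genes, 7.35%, 3.17% and 0.0548%. With the range of mouse numbers as a block 0 of 74 passed in Pbrm1-fl, where 477 of 20083 genes in all did. In Arid1a-fl 4 of 74 passed, where 1405 of 20083 genes did, so nothing is read from that count. They were Kptn and Sesn2 (0.66 and 1.14), higher, and Mios and Vps11 (-0.57 and -0.38), lower, named after their values were seen. None of the genes called without the block was among them.

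The 3 that rose in hSS2 Pbrm1-fl were 1 each of the GATOR1, GATOR2 and KICSTOR lists. Nprl2, a subunit of GATOR1, which switches RagA and RagB off, was at 27.5 ± 4.72 (SD, n = 8) against 20.8 ± 3.03 (SD, n = 13) CPM (0.41 ± 0.10, edgeR adjusted p = 0.00908). Wdr59, a subunit of GATOR2, which opposes GATOR1, was at 55 ± 6.27 against 42.5 ± 5.30 CPM (0.37 ± 0.09, edgeR adjusted p = 0.0103). Kptn, a subunit of KICSTOR, the scaffold that holds GATOR1 at the lysosome, was at 28.7 ± 4.25 against 19.2 ± 5.22 CPM (0.58 ± 0.15, edgeR adjusted p = 0.0143). With only controls of the same mouse number range, none of the 3 passed, with differences of 0.44, 0.31 and 0.31 (edgeR adjusted p = 0.0956, 0.240 and 0.305).

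Of the 3 lists, GATOR1 had 1 of 3 genes past the threshold, GATOR2 1 of 5 and KICSTOR 1 of 4. All 7 lists together had 5 of 74, near the 7.35% of all genes that passed, so nothing is read from the counts of such short lists. Ragulator, the lysosomal anchor of the Rag pairs, had 0 of 5, with a median difference of 0.09. The amino acid sensors (sestrins, Castor proteins, Slc38a9 and Rnf152) had 0 of 7, with a median of 0.02. In hSS1 the medians of these 5 lists were 0.14 for Ragulator, 0.39 for GATOR1, -0.07 for GATOR2, 0.15 for KICSTOR and 0.37 for the sensors, against 0.011 over all genes, with no gene past the threshold.

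Of 9 genes of mTORC1 and its TSC brake, Rheb, the GTPase that activates mTORC1, fell in hSS2 Pbrm1-fl tumours to 54.4 ± 5.19 from 63.5 ± 5.39 CPM (-0.22 ± 0.06, edgeR adjusted p = 0.0251). Akt1s1, for the mTORC1 component PRAS40, rose in Arid1a-fl to 67.5 ± 12.4 from 51.2 ± 5.24 CPM (0.39 ± 0.08, edgeR adjusted p = 0.0142). Both missed the threshold with controls of the same mouse number range (-0.27 and 0.34, edgeR adjusted p = 0.0792 and 0.0728).

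Among 41 lysosome and autophagy genes, a list of MiT/TFE targets, 1 fell in hSS2 Pbrm1-fl tumours and 0 rose (7.35% of all genes passed), with a median of -0.08. It was Ctsk, for the bone-resorbing protease cathepsin K, which was at 2.27 to 84.5 CPM (median 10.8) against 5.64 to 174 CPM (median 90.4) in controls (-2.32 ± 0.55, edgeR adjusted p = 0.00772). All 8 lay under the control median. With controls of the same mouse number range it was -1.70 (edgeR adjusted p = 0.251). Ctsk is also made by osteoclasts and fibroblasts. In hSS2 controls and Pbrm1-fl tumours 3 of the 6 osteoclast markers, Ctsk, Acp5 and Mmp9, had a median of at least 1 CPM. Ocstamp stayed under 1 CPM in both groups, and Dcstamp and Calcr in every tumour of the series. The osteoclast score, of which Ctsk is a part, differed by -1.35 log2 in hSS2 Pbrm1-fl tumours (exact permutation p = 0.0769, adjusted p = 0.661), at 8.50 to 335 against 11 to 576 summed CPM. The part of such cells in the Ctsk difference was not tested.

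In hSS1, Ctsk was at 3.37 to 34.5 CPM in controls and 2.32 to 100 CPM in Pbrm1-fl (1.67, edgeR adjusted p = 0.364). The difference between the Pbrm1-fl effects in hSS1 and hSS2 passed for 2 of the 41 genes (2.86% of all genes), Ctsk (3.99 ± 0.99, edgeR adjusted p = 0.0221) and Gaa, the lysosomal glucosidase (1.22 ± 0.34, edgeR adjusted p = 0.0358). Both were lost with controls of the same mouse number range (4.29 and 1.63, edgeR adjusted p = 0.198 and 0.118). Ctsk was also lost without hSS1 control replicate 3 or Pbrm1-fl replicate 2, and Gaa without hSS1 control replicate 1 or 3 or Pbrm1-fl replicate 1 or 2 (edgeR adjusted p up to 0.0702 and 0.0917).

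Between the floxed hSS2 groups 4 of the 41 genes were lower in Pbrm1-fl than in Arid1a-fl, where 12.3% of all genes passed, and 4 lower than in Arid1b-fl, where 4.37% did, in both cases Ctsk, the protease gene Ctsf, Gaa (named here after its values were seen) and Hexa, a subunit of hexosaminidase. Hexa was at 105 ± 36.6 in Pbrm1-fl, 190 ± 39.6 in Arid1a-fl and 191 ± 52.4 CPM in Arid1b-fl (SD, n = 8 each), differences of -0.84 ± 0.22 and -0.85 ± 0.22 (edgeR adjusted p = 0.0102 and 0.0202). These pairs share the Pbrm1-fl tumours. A further 2 genes passed there, Lamtor3 of Ragulator, lower in Pbrm1-fl than in Arid1a-fl (-0.30 ± 0.08, edgeR adjusted p = 0.0112), and Nprl2, higher than in both (0.43 ± 0.11 and 0.40 ± 0.11, edgeR adjusted p = 0.00948 and 0.0313). With the range as a block 0 of the 74 listed genes passed in either pair, where 436 and 55 of 20083 genes in all did. Hexa was then at -0.34 and -0.26 (edgeR adjusted p = 0.629 and 0.897).

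Markers of other cells the tumours could hold were read beside these results. There were 32 tests, of 8 marker lists (skeletal muscle, macrophage, endothelial, adipocyte, osteoclast, melanocyte and Schwann, proliferation and sex-linked genes) in 4 comparisons. By an exact permutation test over tumours, two-sided and adjusted over all 32, 0 passed, with a smallest adjusted p of 0.661. In hSS1 the tumours allow only 126 splits, so no single list could pass there on its own after adjustment, and nothing is read from those tests. The hSS1 scores also rested on few genes in some lists: 1 adipocyte, 1 sex-linked, 2 melanocyte and Schwann and 5 muscle genes. The smallest raw p was for proliferation genes in hSS1, which were lower in Pbrm1-fl tumours by 0.830 on the log2 scale (exact permutation p = 0.0476), at 563 to 1325 against 872 to 2261 summed CPM. Summed muscle genes ranged from 6.05 to 53349 CPM over hSS2 and from 7.82 to 623 CPM over hSS1. With the muscle score as a covariate, Rragd differed by -1.21 ± 0.10 in hSS1. The part of the proliferation genes in the Rragd difference was not tested. Xist was at 10.6 CPM in hSS1 Pbrm1-fl replicate 3 and at 4951 to 6566 CPM in the other 3, and without that tumour and hSS1 control replicate 2, the 2 hSS1 tumours with low Xist (152 CPM in the control), left out together after the data were seen, Rragd differed by -1.20 ± 0.15.

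The genes whose levels followed Rragd most closely differed between the tables. Over 37 hSS2 tumours and 17634 genes compared, the highest correlations of log2 CPM were with Gfm1, a mitochondrial elongation factor gene (r = 0.73), Mrpl51, of the mitochondrial ribosome (0.72), and Atp5g3, Cox6b1 and Ndufb8, subunits of ATP synthase and of respiratory complexes IV and I (each 0.71). Over the 9 hSS1 tumours their correlations were 0.55, 0.47, 0.73, 0.26 and 0.42. The lowest in hSS2 were Gm44891 (-0.68), the calcium-binding protein gene Efhd1 (-0.67) and the sulfotransferase gene Chst15 (-0.67), at 0.26, 0.53 and 0.11 in hSS1.

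Over the 9 hSS1 tumours and 17220 genes the highest were Nr2c2 and Mrps14 (each 0.98), Syt6 and BC106179 (each 0.97) and Ctnnal1 (0.96), a nuclear receptor, a mitochondrial ribosomal protein, a synaptotagmin, a non-coding transcript and a catenin-like protein. In hSS2 these had correlations of 0.19, 0.19, -0.04, -0.12 and 0.26. The lowest were Cd248, Ppil2 and Fam120b (each -0.96), at 0.02, -0.20 and -0.17 in hSS2. The hSS1 points share the step between control and Pbrm1-fl groups, so any gene that differs between those groups ranks high, and these correlations describe the ranking alone.

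Among the 10 genes, Rragd had correlations of -0.25 to 0.21 with the others in hSS2. Its largest correlation in hSS1 was -0.51, with Flcn and with Tfeb, against 0.03 and 0.11 in hSS2. Flcn, Rragc and Rraga varied together over the 9 hSS1 tumours (r of 0.80 to 0.87) but not over the 37 hSS2 tumours (r of -0.26 to 0.08). Rragb and Tfe3, the X-linked pair, had r = 0.53 in hSS2 and -0.02 in hSS1. In hSS2 the 3 controls with high X-linked genes described above were the highest of all controls for both.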

How the data were processed

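RNA of 46 mouse tumours was sequenced from rRNA-depleted stranded libraries, 1 library per tumour. The authors aligned reads with STAR 2.7.11 to mm10 and deposited whole-number counts per gene from featureCounts 1.6.3, in a table for hSS2 and a table for hSS1; which annotation was counted, whether strand was used and how multimapping reads were treated are not given in the sources used here. Positions, symbols and lengths were taken from GENCODE M21 (GRCm38) by identifier, which matched 91.5% and 91.3% of identifiers. Per-sample columns left unmapped to a sample numbered 0. Totals were 10.1 to 21.3 M counts per library.

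The test was the quasi-likelihood F test of edgeR 4.0.16 under R 4.3.3 (filterByExpr, TMM, robust fit, Benjamini-Hochberg adjustment over all tested genes, threshold 0.05), within each table and, for the difference between fusions, in a joint fit. P-values measure the spread between tumours. The procedure was tested on simulated data. Levels are CPM, or RPKM over merged exons; log2 CPM used a prior count of 2. Alternatives were DESeq2 1.42.0, RLE size factors, no filter, a muscle score as covariate, controls of the same mouse number range, gene length and left-out tumours. The joint removal of hSS2 control replicates 2, 3 and 9, and of hSS1 control replicate 2 with Pbrm1-fl replicate 3, and a fit with mouse number range (under 1000, 2000 and over, or between) as a block within each table, were chosen after seeing the data. Marker lists were compared by exact permutation.

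The 10 genes and all gene lists were chosen with earlier results of these data known. Other genes were named by rule: up to 3 per pathway list and comparison with the smallest adjusted p among those past the threshold, the 4 tested genes starting nearest to Rragd within 500 kb, and the 5 highest and 3 lowest correlations with Rragd in each table. Samtor was not matched and is not analysed here.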

Additional observations from a re-analysis of the deposited data

Results flagged for a closer look

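In 50 checks of a group's highest or lowest tumour against the rest, a check that chance alone trips in about 1 of 20 groups, 3 values stood apart. Tfeb was at 3.35 RPKM in hSS2 Arid1a-fl replicate 1, with the other 7 tumours between 6.16 and 8.12. Fnip2 was at 9.79 RPKM in hSS2 Arid1b-fl replicate 5, with the other 7 between 2.19 and 4.18. Fnip2 was also at 5.08 RPKM in hSS1 control replicate 1, with the other 4 between 3.02 and 3.53.

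The effect of Pbrm1 disruption differed between hSS1 and hSS2 for 4 of the genes described. Rragd differed by -1.43 (log2), the difference for which it was chosen. Ctsk differed by 3.99 and Gaa by 1.22, both lost with controls of the same mouse number range. The transcript 4933421O10Rik beside Rragd differed by 1.42, which was likewise lost with those controls.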

How the results depend on the processing

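The hSS1 contrast and the difference between fusions each held 1 of the 10 genes past the threshold, Rragd, whose choice used those contrasts, so nothing is read from these counts. With controls of the same mouse number range both were 0, with the range as a block the hSS1 count was 0, and without hSS1 control replicate 2 and Pbrm1-fl replicate 3 together the hSS1 count was 0. Leaving out 1 tumour at a time gave hSS1 counts of 0 to 1, 0 without any of the 9 but control replicate 5. The cause was not tested. Directions that turned all belonged to differences that passed no threshold. Without hSS2 control replicates 2, 3 and 9 they were Rragb 0.25 in Pbrm1-fl and 0.04 in Arid1a-fl, Tfeb -0.03 in Arid1b-fl and Tfe3 -0.01 in the difference between fusions. Without control 9 alone Tfeb in Arid1b-fl was -0.03. With controls of the same range they were Fnip1 0.07 in hSS2 Pbrm1-fl, Tfeb 0.14 in Arid1a-fl, Rragd 0.09, Tfeb -0.11 and Fnip1 0.00 in Arid1b-fl, Tfe3 -0.13 and Fnip2 0.02 in hSS1, and Rragb 0.49 and Fnip1 -0.12 between fusions. With the range as a block they were Fnip1 0.07 in hSS2 Pbrm1-fl, Tfeb 0.14 in Arid1a-fl, Rragd 0.10, Tfeb -0.10 and Fnip1 0.01 in Arid1b-fl, Tfe3 -0.13 and Fnip2 0.03 in hSS1, and Rragb 0.47 and Fnip1 -0.13 between fusions. In Arid1b-fl Tfeb was -0.01 with RLE size factors and -0.01 with DESeq2, Mitf 0.01 without the filter and 0.02 with the muscle score, and Fnip1 0.01 with the muscle score. Without hSS1 control 2 and Pbrm1-fl 3, Tfe3 was -0.06 and Fnip2 0.08 in hSS1. Leaving out 1 tumour at a time, Flcn ran from -0.07 to 0.03 in hSS2 Pbrm1-fl; Tfeb from -0.14 to 0.01 and Fnip2 from -0.05 to 0.06 in Arid1a-fl; Rragd from -0.12 to 0.02, Mitf from -0.16 to 0.16, Tfeb from -0.13 to 0.06, Fnip1 from -0.13 to 0.03 and Fnip2 from -0.07 to 0.38 in Arid1b-fl; Tfe3 from -0.07 to 0.12, Fnip1 from -0.25 to 0.15 and Fnip2 from -0.32 to 0.14 in hSS1; and Rragb from -0.20 to 0.01 and Tfeb from -0.01 to 0.46 between fusions. Per kilobase of the longest transcript, Tfeb made up 51.3, 58.2, 53.2 and 54% of the MiT/TFE signal in the hSS2 groups (controls, then floxed Pbrm1, Arid1a and Arid1b), 38.6% in hSS1 controls and 44.6% in hSS1 Pbrm1-fl; Tfe3 made up 38.5, 31.1, 37.5 and 35.5% in the hSS2 groups and 42.3% in hSS1 Pbrm1-fl; Mitf made up 10.7% in hSS2 Pbrm1-fl, 9.32% in Arid1a-fl and 9.85% in hSS1 control. Over all genes, DESeq2 called 2282, 1740, 18, 1244 and 1160 in hSS2 Pbrm1-fl, Arid1a-fl, Arid1b-fl, hSS1 Pbrm1-fl and the difference between fusions, against 1476, 637, 11, 1 and 622 with edgeR; controls of the same range gave 446, 1095, 0, 0 and 2, and the range as a block 477, 1405, 0, 0 and 9. Without the filter Arid1a-fl had 243 calls, Arid1b-fl 27 and the difference between fusions 402, and with the muscle score, or without controls 2, 3 and 9, Arid1b-fl had 6. Without control 9 Arid1a-fl had 388 calls. Leaving out 1 Arid1a-fl tumour gave 56 to 1416. No paired analysis was possible because the labels give no shared replicate numbers and tie no tumour to a litter. The fit with the mouse number range as a block was added after the data were seen.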
